A study of Mus musculus with 50 samples.

Results

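The question was whether deleting the histone deacetylases HDAC1 and HDAC2 from microglia by 2 different routes left the same RNA changes at birth, and where the effects of the 2 routes differed. The constitutive effect (knockout minus control) minus the inducible effect was tested gene by gene as an interaction, in 14 of the 50 libraries of the series, all of microglia sorted by fluorescence from the brains of newborn (P0) mice. Every animal, controls included, carried loxP sites in both copies of Hdac1 and Hdac2. The constitutive knockouts (3 animals) also carried CX3CR1-Cre, and they and their Cre-free controls (4 animals) received no treatment. The inducible knockouts (4 animals) carried CX3CR1-CreERT2, and their dams, like those of their Cre-free controls (3 animals), were injected with 3 mg tamoxifen together with progesterone on embryonic day 13. The Cre line, the tamoxifen and the time since deletion therefore changed together between the models, and their parts in any difference cannot be told apart, nor can deletion be told apart from carrying Cre within a model. Each library carries its own animal number. In a sorted bulk sample, fewer cells of a type and less RNA per cell cannot be told apart.

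HDAC1 and HDAC2 are close paralogs that remove acetyl groups from histone tails as the catalytic subunits of the SIN3, NuRD and CoREST complexes, and in many cell types each can partly stand in for the other. Microglia are the macrophages of the brain parenchyma. They arise from yolk sac progenitors, are still dividing around birth, and take on a characteristic set of genes (Tmem119, P2ry12, Sall1, the complement component C1q) as they mature. The promoter of Cx3cr1, the fractalkine receptor gene, is active throughout this lineage, so an untreated Cre acts from early in its development, whereas CreERT2 (Cre fused to a mutant oestrogen receptor domain) acts only once tamoxifen is given.

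The libraries held 12434264 to 27440066 assigned reads, and values are read counts normalised to the scaled library size (CPM), given throughout in the order of animals 69, 70, 71 and 74 (constitutive controls), 68, 73 and 76 (constitutive knockouts), 54, 55 and 56 (inducible controls) and 48, 49, 53 and 57 (inducible knockouts). Inducible control 56 and inducible knockout 57 stood apart from the other inducible libraries, with summed immediate early gene levels of 7704 and 7423 CPM against 1154 to 2543 CPM in the other 5. The library labelled constitutive knockout 68 had the highest Hdac1 level of its group, and its summed homeostatic microglia genes reached 9619 CPM against 4428 and 5984 in the other constitutive knockouts. The scaling factors of the constitutive knockouts (1.23 to 1.30) lay above those of the other 11 libraries (0.878 to 1.04). The library kit is not described as marking strand, and Adora3, Atp8a2, Bhlhe41, Bid, Cd37, Cd9, Cdkn1a, Cdkn1c, Ctsb, Ctsl, Cx3cr1, Gins2, Glb1, Hdac5, Hdac7, Il1b, Kcnab2, Klk8, Lamp1, Maf, Myadml2, Myo18b, Ncoa3, Olig1, P2ry12, Pole, Ptgs1, Rbbp7, Sin3a, Sirt2, Ttn and Yes1 share exon bases with another annotated gene, so their levels are uncertain to that extent.

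Hdac2 fell in the inducible model, while its constitutive change and both changes of Hdac1 missed the test. Hdac2 measured 174, 124, 132 and 157 CPM in the constitutive controls and 153, 95.5 and 112 in the constitutive knockouts, with overlapping ranges and a difference of -0.29 ± 0.18 (adjusted p = 0.222) on the log2 scale (value ± SE, edgeR's quasi-likelihood test with Benjamini-Hochberg adjustment over all genes tested, as for every adjusted p here). Its inducible values were 165, 151 and 142 CPM in the inducible controls and 73.6, 79.3, 55.3 and 54.7 in the inducible knockouts, groups that did not overlap, and the fall was -1.22 ± 0.18 (adjusted p = 0.000493). The interaction of 0.93 ± 0.25 (adjusted p = 0.0108) kept its call with any single library left out. Hdac1 was low throughout, at 12.04, 11.6, 14.2 and 12.7 CPM in the constitutive controls and 28.8, 7.91 and 7.21 in the constitutive knockouts, where library 68 alone lay above every control. In the inducible model it measured 17.0, 13.1 and 14.5 CPM in the inducible controls and 8.96, 8.71, 10.7 and 8.04 in the inducible knockouts, with no overlap between groups. Neither Hdac1 effect passed the test (0.21 ± 0.36, adjusted p = 0.673, and -0.71 ± 0.36, adjusted p = 0.202). Without library 68 the inducible value was -0.70 with an adjusted p of 0.033. Which exons loxP flanks was not given in the sources used here, so reads from an undeleted part of either gene may count towards these levels. For both genes the constitutive knockouts of animals 73 and 76 lay below all 4 of their controls, and the library labelled constitutive knockout 68 did not, so its Hdac1 level goes against its label. Directions in the constitutive model are drawn with it included. With library totals the constitutive value of Hdac2 was 0.07. Without library 68 the constitutive values were -0.62 for Hdac1 (adjusted p = 0.0592) and -0.39 for Hdac2 (adjusted p = 0.129), and the interaction of Hdac2 was 0.82 (adjusted p = 0.0225).

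Cx3cr1, whose promoter drives Cre, and Esr1 also differed between the models. Cx3cr1 measured 2978, 3625, 3770.4 and 3539 CPM in the constitutive controls and 289, 49.2 and 64.4 in the constitutive knockouts, and 2896, 3105 and 3089.9 CPM in the inducible controls and 395.9, 462, 387 and 557 in the inducible knockouts. Knockouts and controls did not overlap in either model, with falls of -4.69 ± 0.51 (adjusted p = 5.38e-06) and -2.75 ± 0.42 (adjusted p = 0.000943). The interaction of -1.94 ± 0.60 (adjusted p = 0.0236) lost its call when any 1 of 6 libraries (70, 71, 73, 76, 54 or 56) was left out, and without library 68 the Cx3cr1 interaction was -3.09 (adjusted p = 3.3e-06). Esr1, which encodes the oestrogen receptor, part of which CreERT2 contains, measured 2.497, 2.97, 2.62 and 2.27 CPM in the constitutive controls and 2.46, 1.94 and 3.27 in the constitutive knockouts. With CreERT2 it went from 6.52, 4.99 and 7.49 to 42.6, 35.0, 35.4 and 46.9 CPM, a rise of 2.66 ± 0.23 (adjusted p = 8.3e-06). Whether those reads come from the transgene was not tested.

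**Figure D1:**
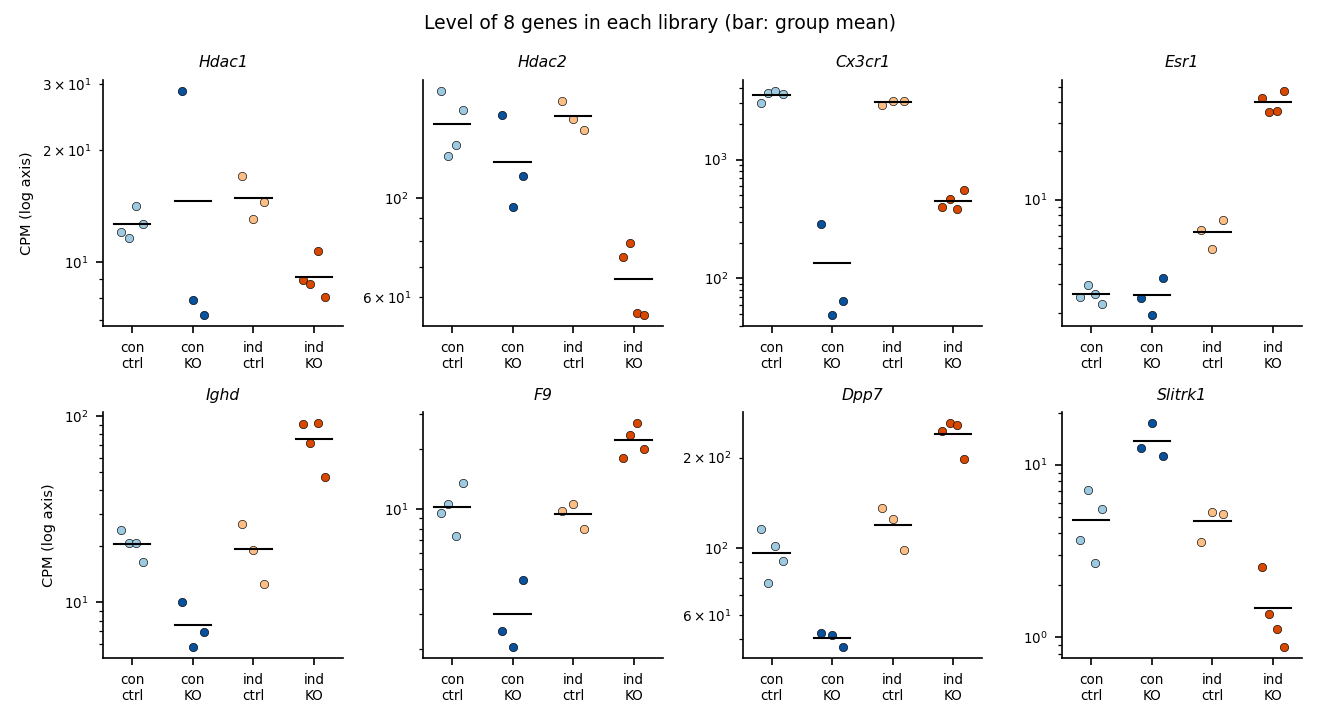
CPM (log axis) in each of the 14 P0 libraries, one point per animal and one panel per gene, for Hdac1, Hdac2, Cx3cr1, Esr1 and the opposed genes Ighd, F9, Dpp7 and Slitrk1. Hdac2 is lower in all 4 inducible knockouts (54.7 to 79.3 CPM) than in the 3 inducible controls (142 to 165 CPM), while the constitutive groups overlap.

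Most genes called in either model were not called in both. Of 19236 genes tested, the constitutive effect was called for 6915 (35.9%, adjusted p under 0.05), of which 3210 rose (16.7%) and 3705 fell (19.3%). The inducible effect was called for 2719 (14.1%), with 1552 higher (8.07%) and 1167 lower (6.07%). The interaction was called for 5946 genes (30.9%), 2692 of them positive (14%), meaning that the constitutive value lay above the inducible one, and 3254 negative (16.9%). Genes that rose in both models numbered 305, which is 9.50% of the constitutive rises and 19.7% of the inducible rises. Genes that fell in both numbered 555, or 15.0% of the constitutive falls and 47.6% of the inducible falls. Of the 1282 genes called in both, 860 moved the same way and 422 (32.9%) moved in opposite directions. Across all genes tested the 2 effects had a Pearson r of 0.04, and 0.47 over genes called in both, as a description across genes that share libraries. Knockout and control ranges did not overlap for 9051 genes in the constitutive model (47.1%) and 4718 in the inducible model (24.5%). These splits depend on scaling, since with library totals in place of scaled sizes the median constitutive change moved up by 0.35 and the counts became 5792 rises and 1992 falls, with 3674 positive and 1488 negative interactions; size factors of another kind (RLE) gave 3749 rises, 3078 falls, and 3019 positive and 2452 negative interactions. Without libraries 56 and 57 the inducible rises were 872 and the falls 619. By sex-linked genes all inducible controls were male, while the inducible knockouts held both sexes, so sex was partly mixed with the inducible effect. With sex as a covariate the inducible rises were 968 and the falls 649, with 2381 positive and 2953 negative interactions. Without library 68 the constitutive rises were 3079 and the falls 2621, and the interactions 2470 positive and 2363 negative.

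Genes were then sorted into classes by the 3 calls. Shared alike (585 genes, 270 up and 315 down) were called in both models in the same direction with no call of the interaction. A missed interaction call does not show equal effects, so alike is only the name of the class. Graded genes (275) moved the same way in both with a called interaction, and 230 of these were falls that were larger in the constitutive model. Opposed genes (422) moved in opposite directions, 226 of them up in the constitutive and down in the inducible model and 196 the reverse. Constitutive-specific genes (3596, 1723 up and 1873 down) and inducible-specific genes (850, 627 up and 223 down) were called in that model and in the interaction but not in the other model. A further 803 genes were called in the interaction alone, and 2037 constitutive and 587 inducible calls stayed unresolved, with neither a call in the other model nor an interaction. Without libraries 56 and 57 the opposed class kept 28.7% of its genes, the lowest share of these 5 classes under that alternative.

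**Figure D2:**
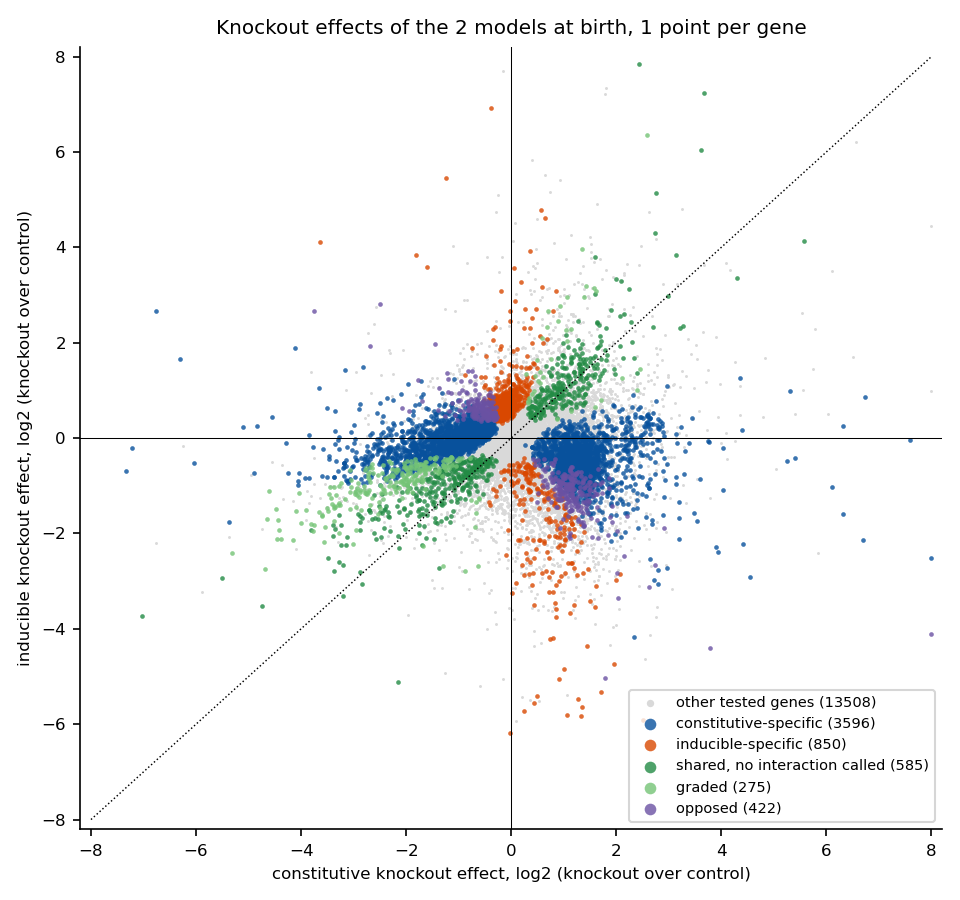
Inducible effect (y axis, log2) against constitutive effect (x axis, log2) for each of 19236 genes tested, coloured by class; 4 genes beyond the limit of 8 are drawn at it. The constitutive-specific genes spread along the horizontal axis, the inducible-specific genes along the vertical axis, and the 422 opposed genes fill the upper left and lower right corners.

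Among genes that fell alike, Slamf8, a cell-surface receptor of myeloid cells, measured 17.4, 14.1, 15.5 and 2.03 CPM in the constitutive controls and 1.75, 1.05 and 0.721 in the constitutive knockouts, and 18.2, 9.77 and 14.3 CPM in the inducible controls and 2.00, 2.54, 2.51 and 1.08 in the inducible knockouts. Its falls were -3.38 ± 0.60 (adjusted p = 0.000427) and -2.79 ± 0.53 (adjusted p = 0.0031), with an interaction of -0.59 ± 0.76 (adjusted p = 0.58). The constitutive control of animal 74 lay far below its group but above the knockouts. Cd9, a tetraspanin, measured 673, 569, 656 and 679 CPM in the constitutive controls and 202, 133 and 175 in the constitutive knockouts, and 739, 601 and 519.8 CPM in the inducible controls and 197, 183, 208 and 253 in the inducible knockouts. All knockouts of both models lay below all controls, with changes of -1.92 and -1.56 (log2), with an interaction of -0.36 ± 0.23 (adjusted p = 0.237). Myo18b, an unconventional myosin gene, had -2.88, -2.80 and -0.08 as its constitutive effect, inducible effect and interaction. Myadml2 fell further, from 9.11, 4.61, 6.49 and 5.03 to 0.474, 0.157 and 0.0481 CPM in the constitutive model and from 5.58, 5.98 and 7.07 to 0.409, 0, 0.386 and 1.33 CPM in the inducible one, and the interaction of -1.22 ± 1.08 (adjusted p = 0.412) rests on these low levels. Across the 315 alike falls the median changes were -1.15 and -0.93. Cd9, and Cd37, Adora3 and Ptgs1 further on, were chosen after their values were seen.

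Promoters of some genes that fell held the letters GAGGAAGT, a form of the site bound by PU.1, the transcription factor that specifies macrophages. The search covered both strands of the 250 bases before each RefSeq start (GRCm38.p6). It found them in 378 of 12774 tested genes with a promoter (2.96%; 802 of all 32851 promoters, 2.44%), in 11 of 175 graded falls that were larger in the constitutive model (6.29%), 12 of 220 alike falls (5.45%) and 61 of 1481 constitutive-specific falls (4.12%). The share was 39 of 1220 among constitutive-specific rises (3.2%), 13 of 485 among inducible-specific rises (2.68%), 3 of 135 among inducible-specific falls (2.22%), 0 of 8 among graded falls that were larger in the inducible model, and 3 of 154 (1.95%) and 2 of 175 (1.14%) in the opposed classes. A match is a description of the letters in this window, and these promoters were chosen because the motif lies close to the start. The stretches from 46 bases before the motif up to the start are shown on the gene's own strand with the motif in capitals, for the adenosine receptor gene Adora3 (chr3:105904345-105904420, plus strand), the tetraspanin gene Cd37 (chr7:45238840-45238910, minus strand) and the cyclooxygenase gene Ptgs1 (chr2:36230356-36230425, plus strand), where the capitals of the first pair are the reverse complement.
Adora3: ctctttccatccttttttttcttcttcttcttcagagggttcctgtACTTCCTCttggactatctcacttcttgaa
Cd37: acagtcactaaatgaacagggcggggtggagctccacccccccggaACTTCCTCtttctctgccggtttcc
Ptgs1: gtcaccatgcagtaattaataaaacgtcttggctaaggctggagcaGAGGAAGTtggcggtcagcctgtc
Adora3 measured 48.98, 42.8, 51.3 and 42.1 CPM in the constitutive controls and 9.34, 3.98 and 9.37 in the constitutive knockouts, and 39.6, 37.2 and 43.1 CPM in the inducible controls and 7.69, 11.3, 9.23 and 12.2 in the inducible knockouts. Both groups of knockouts lay below all controls, with falls of -2.61 and -1.98 and an interaction of -0.63 ± 0.34 (adjusted p = 0.175). Cd37 was of the same kind (-1.60, -1.40 and -0.21 for the constitutive effect, the inducible effect and the interaction, the last with an adjusted p of 0.571). Ptgs1, which starts prostaglandin synthesis, was graded, at 883, 639, 865 and 781 CPM in the constitutive controls and 100.4, 31.5 and 37.3 in the constitutive knockouts, and 854, 773 and 1042 CPM in the inducible controls and 235, 217, 216 and 347 in the inducible knockouts. It fell by 3.81 and 1.81 on the log2 scale, and the interaction was -2.0004 ± 0.44 (adjusted p = 0.00343).

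The alike rises included genes of low level in control microglia. Matn3, an extracellular matrix protein of cartilage, measured 0, 0.121, 0.312 and 0.568 CPM in the constitutive controls and 1.801, 4.45 and 8.51 in the constitutive knockouts, and 1.19, 0.449 and 1.21 CPM in the inducible controls and 7.33, 11.1, 12.9 and 7.12 in the inducible knockouts. Every knockout lay above every control, with rises of 4.30 ± 0.68 (adjusted p = 0.00016) and 3.35 ± 0.64 (adjusted p = 0.00341) and an interaction of 0.96 ± 0.90 (adjusted p = 0.441). Emp1, an epithelial membrane protein, measured 4.63, 2.85, 1.25 and 5.76 CPM in the constitutive controls and 20.4, 26.6 and 56.96 in the constitutive knockouts, and 5.33, 6.93 and 9.36 CPM in the inducible controls and 34.8, 28.0, 40.0 and 43.9 in the inducible knockouts. It rose by 3.276 and 2.35 (log2), with an interaction of 0.93 ± 0.56 (adjusted p = 0.223). Fabp4, a fatty acid carrier, rose by 2.73 and 4.30 without a call of the interaction. Its raw read counts in inducible knockouts 48, 49, 53 and 57 were 96, 162, 140 and 574. The zinc finger gene Zfp979 rose by 2.28 and 2.43. These 4 genes kept both rises with any single library left out. The median changes over the 270 alike rises were 1.04 and 1.07.

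Microglial identity genes were among those that fell in both models and further in the constitutive one. Fcrls, an Fc receptor-like gene used as a microglial marker, measured 3764, 3124, 2985 and 2776 CPM in the constitutive controls and 237.7, 58.3 and 91.9 in the constitutive knockouts, and 2713, 3973 and 2664 CPM in the inducible controls and 1428, 1419, 1439 and 1499 in the inducible knockouts. Knockouts lay below controls in both models, with -4.61 ± 0.39 (adjusted p = 4.27e-07) and -1.11 ± 0.32 (adjusted p = 0.0293), and the interaction was -3.50 ± 0.48 (adjusted p = 0.000193). P2ry12, the ADP receptor that directs microglial processes, fell from 2606, 2383, 2527 and 2579 to 248, 36.9 and 55.1 CPM in the constitutive model. The inducible libraries went from 2394, 1954 and 2223 to 822, 647, 818 and 845 CPM, and its interaction was -2.99 ± 0.63 (adjusted p = 0.00322). Entpd1 (CD39), which degrades extracellular ATP, measured 436, 319, 378 and 394 CPM in the constitutive controls and 59.1, 47.8 and 39.6 in the constitutive knockouts, and 464, 414 and 420.2 CPM in the inducible controls and 195, 189.6, 174 and 229 in the inducible knockouts. Its changes of -2.97 ± 0.16 (adjusted p = 5.62e-08) and -1.14 ± 0.14 (adjusted p = 0.00017) and interaction of -1.83 ± 0.21 (adjusted p = 9.9e-05) kept their calls with any single library left out. The call was lost for the inducible change of Fcrls without any 1 of libraries 55, 48, 49 and 53 (adjusted p up to 0.127) and the inducible change of P2ry12 without any 1 of libraries 70, 54, 55, 56, 48, 49 and 53 (adjusted p up to 0.084).

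Other identity genes fell in the constitutive model, with a called interaction and no call in the inducible model. Tmem119 measured 557, 339, 486 and 468 CPM in the constitutive controls and 118, 47.1 and 56.96 in the constitutive knockouts, and 473, 346 and 531 CPM in the inducible controls and 562, 406, 359 and 598 in the inducible knockouts. The inducible groups overlapped (0.10 ± 0.27, adjusted p = 0.847), against -2.64 ± 0.30 (adjusted p = 6.98e-06) in the constitutive model and an interaction of -2.74 ± 0.40 (adjusted p = 0.000311). C1qa, a chain of complement C1q, went from 2321, 1737, 2504 and 2085 to 491, 266 and 413 CPM in the constitutive model. Its inducible controls (2627, 2250.0 and 3260.3 CPM) and knockouts (2422, 2292, 3193 and 3662 CPM) overlapped, and the interaction was -2.56 ± 0.32 (adjusted p = 0.000125). C1qc and Pros1, the anticoagulant protein S that bridges macrophages to dying cells, had interactions of -2.75 and -2.53 and inducible values of 0.07 and -0.03. Siglech, a sialic acid-binding lectin, fell from 1336, 1096, 1327 and 1219 to 215, 43.4 and 77.2 CPM, while its inducible effect was -0.38 ± 0.34 (adjusted p = 0.485). Without library 68 the interactions were -4.20 for Fcrls, -4.20 for P2ry12 and -3.89 for Siglech. Tmem119 and C1qa were named after their values were seen. Leaving out 1 library ended the call for the inducible change of Fcrls without any 1 of libraries 55, 48, 49 and 53 (adjusted p up to 0.127) and the inducible change of P2ry12 without any 1 of libraries 70, 54, 55, 56, 48, 49 and 53 (adjusted p up to 0.084).

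Over the list of 30 homeostatic microglia genes, all 30 fell in the constitutive model, 13 fell and 1 rose in the inducible model, and 26 had a negative interaction. The list medians were -2.95, -0.81 and -2.42, against -0.07 to 0.05 for all genes tested in the 3 comparisons. Of all genes tested, 16.7% rose and 19.3% fell in the constitutive model, and 8.07% rose and 6.07% fell in the inducible model. A positive interaction was called for 14% of them and a negative one for 16.9%. With single libraries left out, library 68 among them, the constitutive falls stayed at 30, the negative interactions ran from 23 to 29 and the inducible falls from 5 to 17. Leaving out any 1 of inducible controls 54, 55 and 56 or inducible knockouts 48, 49 and 53 brought the inducible falls to between 5 and 7, and without libraries 56 and 57 they numbered 4. The summed level of the list was 57069, 44997, 57704 and 53466 CPM in the constitutive controls and 9619, 4428 and 5984 in the constitutive knockouts. It was 54638, 49558 and 60522 CPM in the inducible controls and 35011, 31901, 37248 and 45098 in the inducible knockouts, so neither model's groups overlapped. Of 18 macrophage and microglia transcription factors, 15 fell in the constitutive and 2 in the inducible model, and 12 had a negative interaction; the inducible falls were 4 without library 57 and lost their calls without 56. Maf changed by -1.75 ± 0.21 (adjusted p = 1.1e-05) and 0.08 ± 0.20 (adjusted p = 0.8291), and the interactions of Fli1, Mef2c and Bhlhe41 were -1.62, -1.45 and -1.72. Of 24 disease-associated microglia genes, 19 fell and 2 rose in the constitutive model, 9 fell and 2 rose in the inducible one, and 15 had a negative and 2 a positive interaction. The inducible falls of that list ran from 5 (without any 1 of libraries 54, 55 and 49) to 10. Cd68, a lysosomal membrane protein, was graded (-2.91, -0.95 and -1.96 for the 3 values), as was Ctsl (-2.69, -0.62 and -2.07), while Ctsb (-2.80, -0.43 and -2.37) and the growth factor gene Igf1 (-2.21, -0.20 and -2.01) were called in the constitutive model and the interaction. Calls that rested on 1 library were those of the inducible change of Bhlhe41 without library 56 (adjusted p up to 0.064) and the inducible change of Ctsl without any 1 of libraries 71, 74, 76, 54, 55, 56, 48, 49 and 53 (adjusted p up to 0.113).

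Lysosome genes moved much as the identity genes did. All 27 on the list fell in the constitutive model, 6 fell and 1 rose in the inducible model, and 23 had a negative interaction (medians -1.86, -0.29 and -1.78). The corresponding shares over all genes tested were 19.3%, 6.07%, 8.07% and 16.9%. Lamp1, an abundant lysosomal membrane protein, measured 2722, 1942, 2383 and 2343 CPM in the constitutive controls and 743, 541 and 650.1 in the constitutive knockouts, and 3009.7, 2659 and 2665 CPM in the inducible controls and 2759, 2768, 2846 and 2976 in the inducible knockouts. The constitutive groups lay far apart (-1.86 ± 0.15, adjusted p = 2.99e-07), the inducible groups overlapped (0.03 ± 0.14, adjusted p = 0.909), and the interaction was -1.89 ± 0.20 (adjusted p = 6.94e-05). The protease Tpp1 (-2.16, -0.14 and -2.02) was also constitutive-specific, whereas Lipa, the acid lipase, fell in both (-2.33, -0.80 and -1.53). Summed lysosome genes ran from 31188 to 44879 CPM in the constitutive controls and from 5437 to 9497 in their knockouts, and from 38972 to 44512 and 29083 to 35011 in the inducible controls and knockouts. The inducible falls on the list dropped to 3 without any 1 of libraries 55, 56, 48 and 49.

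**Figure D3:**
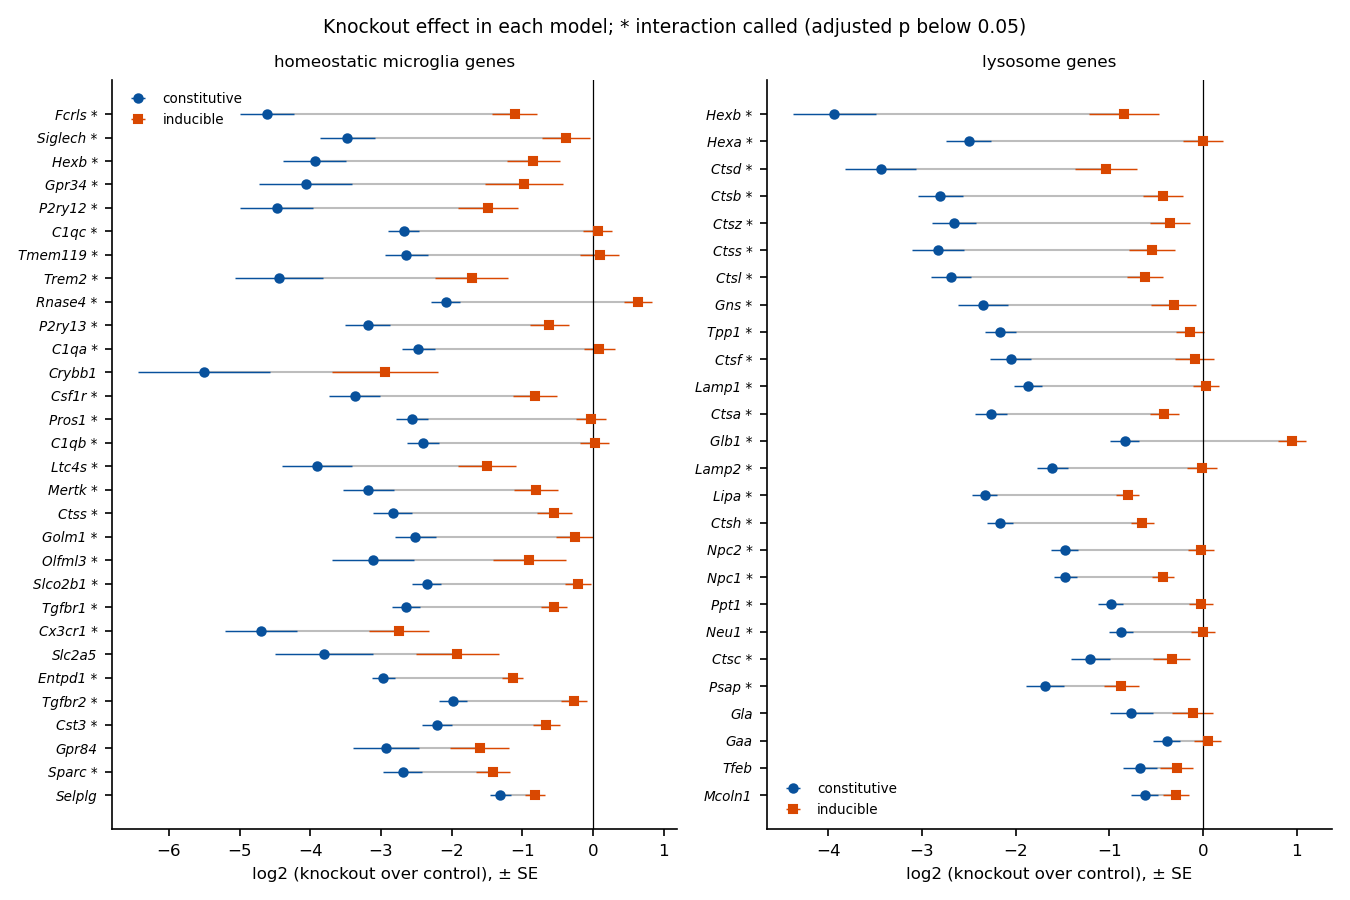
Constitutive and inducible effects (log2, ± SE) for each of 30 homeostatic genes and 26 of the 27 lysosome genes, one row per gene, with an asterisk where the interaction was called. All genes drawn lie below 0 in the constitutive model, and most inducible points lie nearer 0.

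A small set of genes fell further in the inducible model. Adgrg1 (GPR56), an adhesion G protein-coupled receptor, measured 200.4, 194, 183 and 181 CPM in the constitutive controls and 135, 126 and 109 in the constitutive knockouts, and 214, 161 and 188 CPM in the inducible controls and 36.1, 31.1, 21.4 and 28.7 in the inducible knockouts. No knockout overlapped its controls, but the inducible fall was -2.68 ± 0.16 (adjusted p = 1.05e-07) against -0.62 ± 0.15 (adjusted p = 0.00499), with an interaction of 2.05 ± 0.21 (adjusted p = 5.81e-05). Itgax (CD11c) measured 11.3, 7.82, 15.9 and 15.3 CPM in the constitutive controls and 4.60, 6.44 and 4.18 in the constitutive knockouts, and 20.5, 22.5 and 14.0 CPM in the inducible controls and 2.37, 2.11, 3.00 and 4.29 in the inducible knockouts, with an interaction of 1.38 ± 0.44 (adjusted p = 0.025). The flippase gene Atp8a2 (-0.88, -2.78 and 1.90) and the Src-family kinase gene Yes1 (-0.68, -1.86 and 1.17) were alike in this, and 10 genes in all formed the class. Single libraries ended the call for the constitutive change of Adgrg1 without any 1 of libraries 69, 73 and 76 (adjusted p up to 0.0972), the constitutive change of Atp8a2 without any 1 of libraries 69, 71, 68 and 76 (adjusted p up to 0.118), the interaction of Itgax without either of libraries 73 and 55 (adjusted p up to 0.0727) and the constitutive change of Yes1 without any 1 of libraries 74, 68, 73 and 76 (adjusted p up to 0.0915).

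Rises that were larger in the inducible model (28 genes) had medians of 0.70 and 2.07 in the constitutive and inducible models. Klk8, a secreted serine protease, measured 6.68, 6.79, 8.55 and 7.71 CPM in the constitutive controls and 12.1, 10.3 and 14.0 in the constitutive knockouts, and 4.95, 6.88 and 6.95 CPM in the inducible controls and 41.2, 32.0, 44.2 and 41.5 in the inducible knockouts. The rises were 0.71 ± 0.19 (adjusted p = 0.0096) and 2.66 ± 0.21 (adjusted p = 3.85e-06), with an interaction of -1.96 ± 0.28 (adjusted p = 0.000264). Ifi27 is an interferon-inducible gene. It measured 27.1, 24.4, 38.4 and 34.2 CPM in the constitutive controls and 52.7, 49.6 and 70.8 in the constitutive knockouts, and 47.5, 57.2 and 39.0 CPM in the inducible controls and 231, 224, 335 and 266 in the inducible knockouts. Its inducible rise of 2.46 ± 0.21 (adjusted p = 5.54e-06) exceeded the constitutive rise by an interaction of -1.57 ± 0.27 (adjusted p = 0.000964). The tropomyosin gene Tpm2 (1.42, 3.19 and -1.77), Fkbp11 (0.93, 2.76 and -1.83) and the p53 target Zmat3 (0.58, 2.10 and -1.51) followed the same order. Rises larger in the constitutive model were 7 genes, of which Kcnab2, a potassium channel subunit (1.71, 0.81 and 0.90), kept its interaction with any single library left out. The call was lost for the constitutive change of Fkbp11 without library 68 (adjusted p up to 0.0595) and the constitutive change of Zmat3 without any 1 of libraries 73, 55 and 48 (adjusted p up to 0.0554).

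In the opposed class, Ighd (immunoglobulin D heavy chain, chr12:113406604-113416324, GRCm38) measured 24.5, 20.8, 20.9 and 16.5 CPM in the constitutive controls and 10.0, 5.76 and 6.92 in the constitutive knockouts, and 26.3, 19.0 and 12.6 CPM in the inducible controls and 90.5, 71.8, 91.5 and 47.5 in the inducible knockouts. Knockouts lay below controls in one model and above them in the other, with -1.45 ± 0.28 (adjusted p = 0.000914) and 1.96 ± 0.28 (adjusted p = 0.000453) and an interaction of -3.41 ± 0.40 (adjusted p = 0.000101). F9 (coagulation factor IX, chrX:59999464-60030759) measured 9.55, 10.5, 7.37 and 13.5 CPM in the constitutive controls and 2.46, 2.04 and 4.42 in the constitutive knockouts, and 9.78, 10.6 and 7.98 CPM in the inducible controls and 18.1, 23.4, 26.8 and 20.0 in the inducible knockouts. Again neither pair of groups overlapped, and the interaction was -3.00 ± 0.41 (adjusted p = 0.000192). Dpp7, a lysosomal dipeptidase (chr2:25352276-25356359), measured 116, 76.9, 102 and 90.9 CPM in the constitutive controls and 52.6, 51.5 and 47.1 in the constitutive knockouts, and 136, 125 and 99.0 CPM in the inducible controls and 246, 259.8, 256 and 197 in the inducible knockouts. Its changes were -0.93 ± 0.15 (adjusted p = 0.000217) and 1.00 ± 0.15 (adjusted p = 0.000699), and the interaction was -1.93 ± 0.22 (adjusted p = 8.4e-05). Glb1, the lysosomal beta-galactosidase, went from 111, 76.4, 111 and 106 to 62.4, 50.5 and 57.3 CPM in the constitutive model and from 146, 161 and 113 to 288, 292, 243 and 258 CPM in the inducible model. Glb1 was picked out after its values were seen. Both effects of Ighd, F9, Dpp7 and Glb1 kept their calls with any single library left out and without libraries 56 and 57.

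Opposite in sign, Slitrk1, a synaptic adhesion protein gene (chr14:108908800-108914158), measured 3.67, 7.15, 2.69 and 5.52 CPM in the constitutive controls and 12.6, 17.3 and 11.2 in the constitutive knockouts, and 3.57, 5.33 and 5.20 CPM in the inducible controls and 2.55, 1.37, 1.11 and 0.875 in the inducible knockouts. It rose by 1.52 ± 0.38 (adjusted p = 0.00552) and changed by -1.67 ± 0.40 (adjusted p = 0.0114) in the inducible model, a fall whose call was lost without libraries 56 and 57. Kat6b, a histone acetyltransferase, measured 32.9, 47.0, 37.5 and 33.0 CPM in the constitutive controls and 53.6, 59.7 and 57.5 in the constitutive knockouts, and 25.8, 33.6 and 31.2 CPM in the inducible controls and 18.1, 18.6, 10.2 and 17.2 in the inducible knockouts. Its effects of 0.60 ± 0.19 (adjusted p = 0.025) and -0.91 ± 0.20 (adjusted p = 0.00671) and its interaction of 1.51 ± 0.28 (adjusted p = 0.00126) kept their calls under each alternative tried. Col18a1, a basement membrane collagen (1.63, -1.44 and 3.07) and Vtn, vitronectin made by pericytes (1.33, -1.45 and 2.78), were also of this class. Most markers of neural and vascular cells also rose in the constitutive model, as given with the other cell types. In the inducible model 1 of 19 neuron, 1 of 14 astrocyte, 4 of 13 oligodendrocyte lineage and 4 of 16 vascular markers fell. There, 1 astrocyte and 2 vascular markers rose. The part of these markers in this class was not tested. The median changes were 1.13 and -1.09 over the 226 genes up in the constitutive model and -0.55 and 0.58 over the 196 genes down in it. Without libraries 56 and 57 the same rules gave 44 and 95 opposed genes. Leaving out 1 library ended the call for the inducible change of Col18a1 without any 1 of libraries 55, 53 and 57 (adjusted p up to 0.133).

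Genes of DNA replication were higher in the inducible knockouts. Of 35 on the list, 18 rose in the inducible model, 1 rose and 12 fell in the constitutive model, and 22 had a negative interaction (medians 0.46, -0.26 and -0.78). In the same order, the shares over all genes tested were 8.07%, 16.7%, 19.3% and 16.9%. Gins2, a subunit of the replicative helicase, measured 26.3, 22.6, 25.6 and 21.5 CPM in the constitutive controls and 18.9, 17.6 and 23.2 in the constitutive knockouts, and 31.6, 22.2 and 22.2 CPM in the inducible controls and 45.95, 48.97, 70.1 and 55.7 in the inducible knockouts. The constitutive groups differed by -0.27 ± 0.18 (adjusted p = 0.268), the inducible knockouts rose by 1.12 ± 0.19 (adjusted p = 0.00131), and the interaction was -1.39 ± 0.26 (adjusted p = 0.00146). The helicase subunits Mcm2 (-0.43, 0.73 and -1.16) and Mcm6 (-0.34, 0.87 and -1.21) and the polymerase subunit Pole (-0.37, 0.65 and -1.02) were classed as opposed. With library totals 7 of the 35 rose and 3 fell in the constitutive model, so the direction there depends on the scaling. The constitutive falls were 3 to 6 without any 1 constitutive library. The inducible rises ran from 11 (without library 55) to 18, and were 9 without libraries 56 and 57. The negative interactions ran from 12 to 21, the lowest without libraries 73, 69 and 76, and numbered 5 in a fit of all 50 libraries and 10 with library totals. Summed, the list stood at 2024, 1821, 1800.5 and 1874 CPM in the constitutive controls and 1742, 1464 and 1590.2 in the constitutive knockouts. In the inducible model it stood at 2367, 2244 and 2077 CPM in controls and 3119, 3146, 3239 and 3212 in knockouts, where all 4 knockouts lay above all controls. Calls that rested on 1 library were those of the constitutive change of Mcm2 without any 1 of libraries 69, 71, 74, 68, 73 and 76 (adjusted p up to 0.157), the constitutive change of Mcm6 without any 1 of libraries 69, 70, 71, 74, 68, 73, 76, 55 and 49 (adjusted p up to 0.465) and the constitutive change of Pole without any 1 of libraries 69, 70, 71, 74, 68, 73, 76, 55, 48, 49 and 57 (adjusted p up to 0.341).

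Of 28 mitosis genes, 9 rose in the inducible model (8.07% of all genes tested did), 4 fell in the constitutive model (19.3% of all), and 11 had a negative interaction (16.9% of all). The inducible rises were 5 without library 55 and 4 without 56, and the 4 constitutive falls lost their calls without any 1 of libraries 69, 71, 74, 68 and 73. Ccnb2, cyclin B2, had -0.31, 0.87 and -1.18, and Bub1, a spindle checkpoint kinase, -0.31, 0.64 and -0.95. The 11 interactions were 4 to 7 without any 1 of libraries 69, 70, 71, 74, 68, 73, 56 and 57, and with library totals 6 of the list rose in the constitutive model. In the fit of all 50 libraries the list's median interaction was -0.33 against -0.60 here, and its interactions were no longer called. Inhibitors of cyclin-dependent kinases differed one from another, with 3 of 6 up in the constitutive model (16.7% of all genes tested) and 1 up in the inducible model. Cdkn1a (p21), which p53 induces, measured 39.1, 34.0, 59.9 and 49.1 CPM in the constitutive controls and 56.5, 54.7 and 70.7 in the constitutive knockouts, and 50.6, 39.0 and 54.5 CPM in the inducible controls and 113, 120.1, 130.5 and 212 in the inducible knockouts. Its inducible rise was 1.58 ± 0.23 (adjusted p = 0.000581), its constitutive value 0.41 ± 0.22 (adjusted p = 0.162), which was called without library 71 (0.683, adjusted p = 0.0405), and its interaction -1.17 ± 0.32 (adjusted p = 0.0125). Cdkn1b (p27) and Cdkn1c (p57) were on the other side, with constitutive rises of 0.86 and 1.09 and interactions of 1.28 and 1.10. Single libraries ended the call for the interaction of Cdkn1a without either of libraries 71 and 73 (adjusted p up to 0.0581).

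Of 29 p53 target genes, 9 rose in the inducible model, 5 rose and 3 fell in the constitutive model, and 8 had a negative and 1 a positive interaction. Over all genes tested, 8.07% rose in the inducible model, 16.7% rose and 19.3% fell in the constitutive model, and 16.9% had a negative interaction, so the share of constitutive rises on the list was near that of all genes. The constitutive falls were at most 1 without library 71, 68 or 73 and 6 without 57, and the negative interactions were 5 without 73. Ccng1, cyclin G1, a target gene of p53, measured 144, 83.5, 110.3 and 107 CPM in the constitutive controls and 109.7, 102 and 93.1 in the constitutive knockouts, and 167, 155 and 112 CPM in the inducible controls and 297, 359, 303 and 275 in the inducible knockouts. It rose in the inducible model by 1.10 ± 0.17 (adjusted p = 0.00104), with -0.13 ± 0.17 (adjusted p = 0.582) in the constitutive one and an interaction of -1.22 ± 0.24 (adjusted p = 0.00204). With library totals 15 of the 29 rose in the constitutive model and 4 interactions were negative. Of 20 pro-apoptotic genes, 4 rose in the inducible model, 7 fell and 3 rose in the constitutive model, and 7 had a negative and 2 a positive interaction; with library totals 7 rose and 3 fell in the constitutive model. The pro-apoptotic falls in the constitutive model were 4, 3 and 2 without library 69, 71 and 73, and the inducible rises were 2 without library 55 or 56. Casp8, the initiator of death receptor signalling, had -2.13, -0.24 and -1.90, Bid -1.10, 0.10 and -1.20 and Bok 1.42, -0.44 and 1.87. Of 11 anti-apoptotic genes, 4 fell and 1 rose in the constitutive model and 2 fell in the inducible one. They held 2 negative interactions, near the share of all genes. Over all genes tested, 6.07% fell in the inducible model and 14% had a positive interaction. Cflar, an inhibitor of caspase-8 activation, fell in both (-1.81, -0.76 and -1.05).

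Of 36 subunits of HDAC1 and HDAC2 complexes, 7 rose and 1 fell in the inducible model, where 8.07% of all genes tested rose, and 2 rose and 8 fell in the constitutive model, where 19.3% of all genes fell. The list held 4 positive and 7 negative interactions, against 14% and 16.9% of all genes. Leaving out any 1 constitutive library gave 4 to 7 constitutive rises and at most 4 falls, the negative interactions were 3 without library 73 and 4 without 76, and the positive ones were 2 without library 55. Sin3a, the scaffold of the SIN3 complex, measured 71.9, 57.3, 68.2 and 64.9 CPM in the constitutive controls and 68.2, 57.02 and 64.7 in the constitutive knockouts, and 67.6, 75.0 and 67.5 CPM in the inducible controls and 186, 138, 149.5 and 161 in the inducible knockouts. The constitutive groups overlapped (-0.05 ± 0.12, adjusted p = 0.779), every inducible knockout lay above every control (1.18 ± 0.13, adjusted p = 6.1e-05), and the interaction was -1.23 ± 0.18 (adjusted p = 0.000275). The histone-binding subunit Rbbp7 had -0.19, 0.66 and -0.85, and Chd3, a helicase of NuRD, was constitutive-specific in the other direction (1.21, -0.35 and 1.56). The constitutive counts of this list turned with the scaling, to 16 rises with library totals. Among 15 other histone deacetylases, 6 rose (3 without library 68) and 2 fell in the constitutive model and 1 rose and 1 fell in the inducible one. The shares over all genes tested were 16.7% and 19.3% for constitutive rises and falls, and 8.07% and 6.07% for inducible ones. Hdac7, a class IIa enzyme, measured 10.2, 17.6, 12.9 and 17.2 CPM in the constitutive controls and 43.7, 43.9 and 29.6 in the constitutive knockouts, and 6.08, 14.9 and 11.3 CPM in the inducible controls and 8.46, 4.45, 7.20 and 2.83 in the inducible knockouts, with an interaction of 2.34 ± 0.49 (adjusted p = 0.00266). Hdac5 was opposed (0.46, -0.56 and 1.01) and Sirt2 fell in the constitutive model alone (-0.74, -0.02 and -0.72). Among 12 acetyltransferases 2 rose and 3 fell in the constitutive model and 2 rose and 1 fell in the inducible one. The constitutive rises among them were near the share of all genes. Hat1, which acetylates new histone H4, was inducible-specific (-0.16, 0.94 and -1.11) and Ncoa3 was constitutive-specific (-1.01, 0.08 and -1.10). The call was lost for the constitutive change of Hdac5 without library 68 (adjusted p up to 0.0517) and the inducible change of Hdac5 without either of libraries 55 and 56 (adjusted p up to 0.103).

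**Figure D4:**
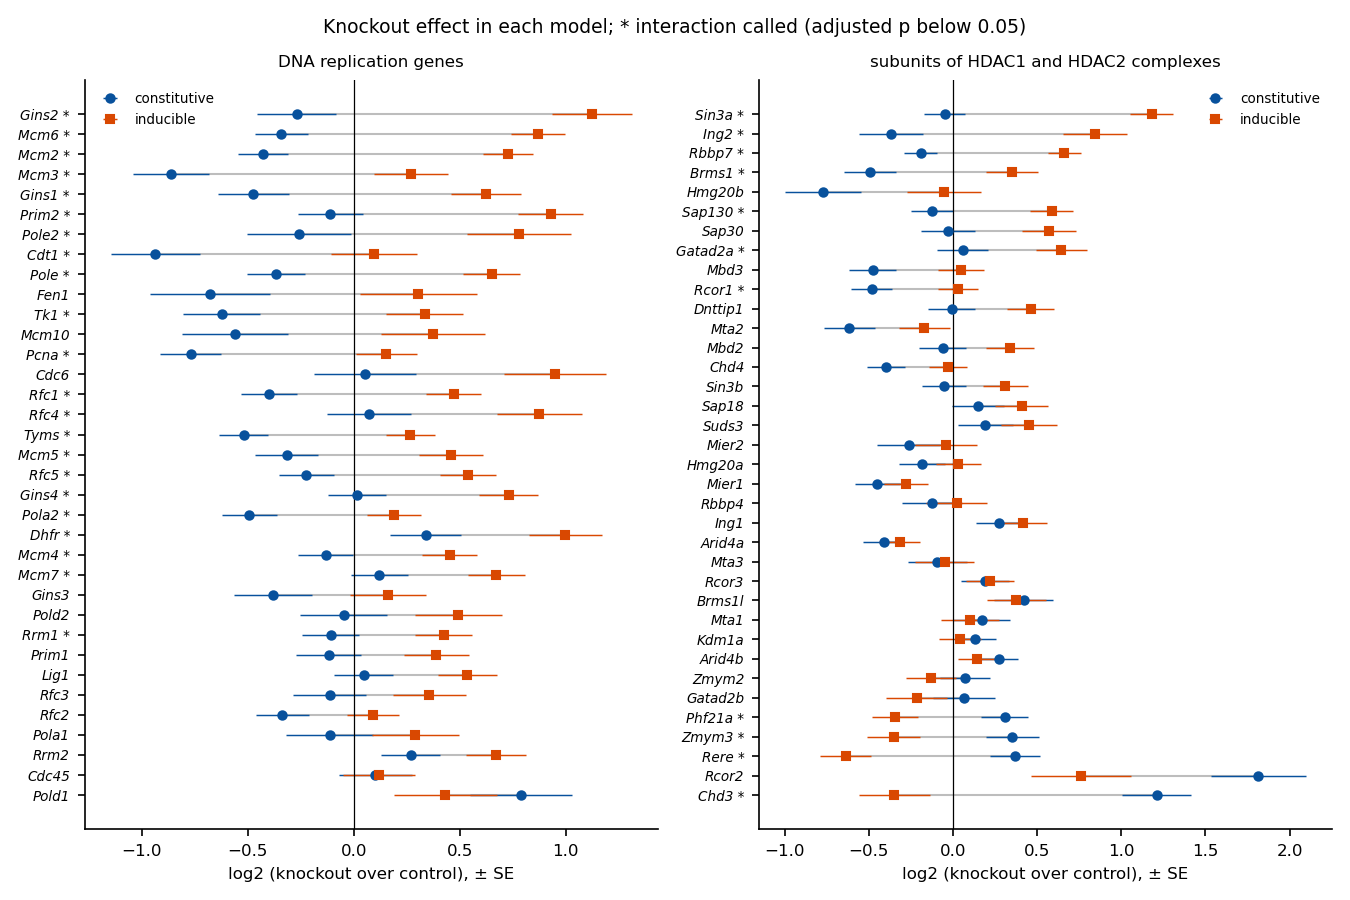
Constitutive and inducible effects (log2, ± SE) for each DNA replication gene and each subunit of HDAC1 and HDAC2 complexes, one row per gene, with an asterisk where the interaction was called. Inducible points of the replication genes lie mostly above 0 (median 0.46) and constitutive points mostly below it (median -0.26, or above 0 with library totals), and Sin3a stands out among the subunits.

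Constitutive-specific falls other than the identity genes included Tmem52, a transmembrane protein gene, at 10.6, 5.88, 11.7 and 11.7 CPM in the constitutive controls and 0.806, 0.471 and 0.769 in the constitutive knockouts, and 4.07, 4.29 and 6.83 CPM in the inducible controls and 5.78, 4.22, 4.73 and 6.37 in the inducible knockouts. The effects were -3.85 ± 0.38 (adjusted p = 1.85e-06) and 0.06 ± 0.32 (adjusted p = 0.922), with an interaction of -3.91 ± 0.49 (adjusted p = 0.000129). Icos, a costimulatory receptor, had -2.88, 0.72 and -3.60 and Gpr165 -2.36, 0.84 and -3.20. The inducible value of Icos was called without library 68 (adjusted p = 0.0357) or 73 (0.0138), and that of Gpr165 without library 53 (adjusted p = 0.0177), 54 (0.0392) or 57 (0.0444). Apob was read at 1.61, 0 and 0 CPM in the constitutive knockouts, so no fold is given for it. Among the constitutive-specific rises, Rab44 measured 0.808, 1.33, 1.75 and 0.731 CPM in the constitutive controls and 11.5, 10.3 and 36.1 in the constitutive knockouts, and 12.1, 16.6 and 2.90 CPM in the inducible controls and 11.4, 11.5, 10.0 and 3.46 in the inducible knockouts. The constitutive rise was 4.03 ± 0.62 (adjusted p = 0.000113), and its inducible libraries overlapped (-0.21 ± 0.55, adjusted p = 0.8291). Spib, a transcription factor of B cells and plasmacytoid dendritic cells (2.91, -1.23 and 4.14), and the protease Adamts15 (2.32, -1.48 and 3.80) were others, and the inducible value of Adamts15 was called without library 54 (adjusted p = 0.0192). Rab44 is known from granulocytes and mast cells, and neutrophil markers were also higher in the constitutive knockouts. Any link between the 2 rises was not tested.

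Markers of neural, vascular and erythroid cells were higher in the constitutive knockouts. Shares over all genes tested were 16.7% for constitutive rises, 8.07% and 6.07% for inducible rises and falls, and 14% for positive interactions. Of 19 neuron markers, 18 rose in the constitutive model and 1 fell in the inducible one, and all 19 had a positive interaction (16 to 19 with 1 library out, 10 in the fit of all 50 libraries). Their summed level was 1307, 2565, 1396 and 1521 CPM in the constitutive controls and 3659, 4221 and 4220.3 in the knockouts. In the inducible model it was 677, 919.9 and 945 CPM in controls and 751, 699, 705 and 392 in knockouts, with overlap. Tubb3 had 1.20, -0.41 and 1.60 and Dcx 1.42, -0.49 and 1.91. Of 14 astrocyte and radial glia markers 12 rose in the constitutive model, of 13 oligodendrocyte lineage markers 7, of 16 vascular markers 9 and of 8 erythroid markers 6. Positive interactions numbered 12, 8, 10 and 6 in those lists, with Sox9, Olig1, Esam and Hbb-bt at 2.11, 2.04, 1.79 and 1.99. In the inducible model the same lists held 1, 4, 4 and 1 falls, and 1 astrocyte and 2 vascular markers rose there, with 1 negative interaction among the vascular markers. The inducible falls were 6 of the astrocyte and 6 of the oligodendrocyte lineage markers without library 54. For the oligodendrocyte list they were 1 without library 56 and 2 without 49, and its positive interactions were 5 without 56. For the vascular list the inducible falls were 2 without library 55 or 56, and its positive interactions were 6 without 55.

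Of 15 neutrophil markers 12 rose in the constitutive model and 1, Csf3r (-0.90 ± 0.19, adjusted p = 0.00595), fell in the inducible one, and 8 had a positive interaction (5 without any 1 of libraries 73, 76, 55 and 48). They summed to 948, 1198, 1830.1 and 1902 CPM in the constitutive controls and 6548, 7187 and 10098 in the constitutive knockouts, and to 1411 to 4544 and 1674 to 6745 in the inducible controls and knockouts. Mmp9, a neutrophil gelatinase, had 2.45, -0.29 and 2.74. Of 14 monocyte markers 12 rose in the constitutive model, and 2 rose and 1 fell in the inducible model, with 8 positive interactions. Of 12 lymphocyte markers 5 rose and 1 fell in the constitutive model and 2 fell in the inducible one, with 3 positive interactions. Summed lymphocyte markers overlapped in the constitutive model, at 104 to 148 CPM in controls and 111 to 139 in knockouts, and ran from 188 to 291 and 98.1 to 229.7 CPM in the inducible controls and knockouts. Of 14 border macrophage markers, 5 fell in the constitutive (9 without library 56 and 8 without 57) and 1 rose in the inducible model. These markers held 4 negative interactions (1 to 7 with 1 library left out). Summed, they stood at 20393, 19172 and 4947 CPM in inducible controls and 17667, 23140.0, 23490.0 and 12211 in inducible knockouts, against 3414 to 5366 and 2419.9 to 4014 in the constitutive controls and knockouts. Among all genes tested, 16.7% rose and 19.3% fell in the constitutive model, and 14% had a positive and 16.9% a negative interaction. In the inducible model 8.07% rose and 6.07% fell, so the 1 rise among border macrophage markers was near the share of all genes. The part of all these cell type markers in the constitutive rises and in the interactions was not tested.

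**Figure D5:**
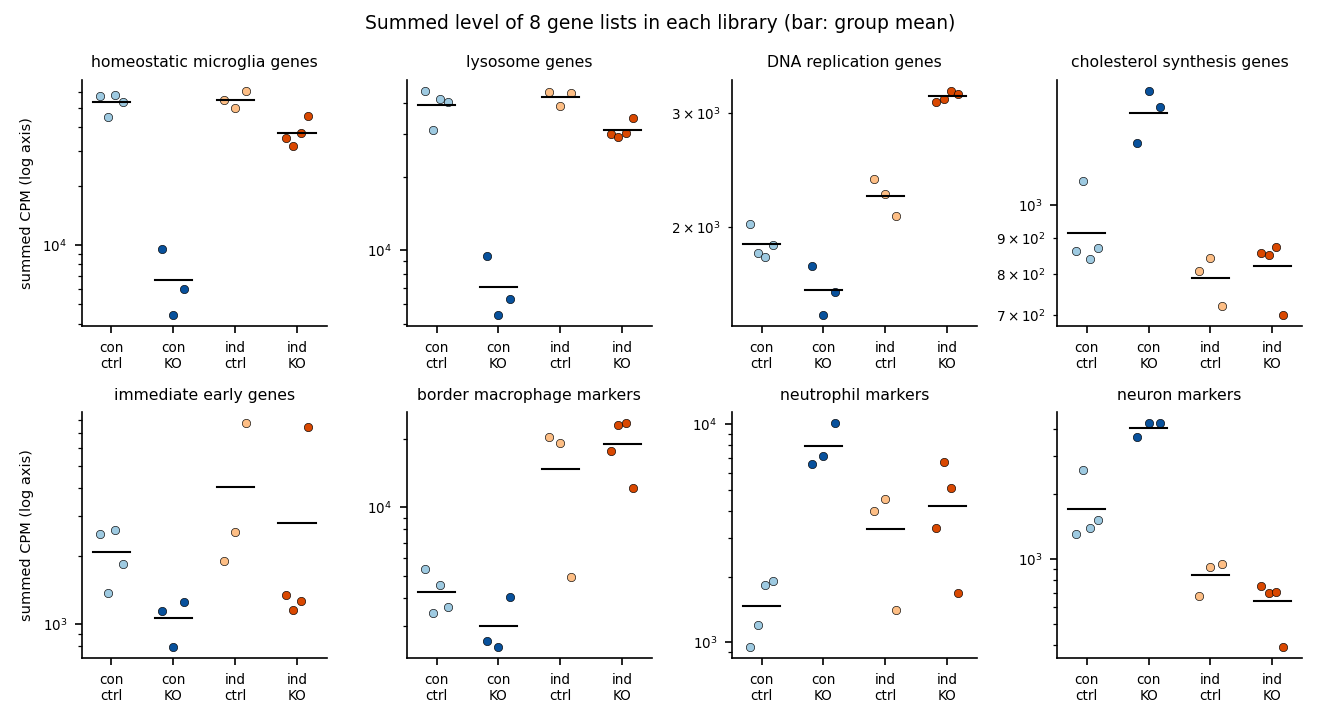
Summed CPM of 8 gene lists in each of the 14 libraries, one point per animal and one panel per list. Homeostatic and lysosome sums are lowest in the 3 constitutive knockouts, neuron and neutrophil sums are highest there apart from overlap of neutrophil sums with one inducible library, and libraries 56 and 57 stand out for the immediate early genes.

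Among the inducible-specific rises, Ttn, titin of the muscle sarcomere, measured 5.36, 16.4, 5.87 and 10.5 CPM in the constitutive controls and 6.83, 11.6 and 14.0 in the constitutive knockouts, and 2.63, 5.04 and 9.43 CPM in the inducible controls and 60.9, 61.2, 43.4 and 54.9 in the inducible knockouts. All 4 inducible knockouts lay above all controls, by 3.27 ± 0.44 (adjusted p = 0.0003), against 0.18 ± 0.40 (adjusted p = 0.753) in the constitutive model and an interaction of -3.09 ± 0.58 (adjusted p = 0.0015). Trim63, the muscle ubiquitin ligase MuRF1, measured 1.25, 0.485, 1.69 and 1.79 CPM in the constitutive controls and 2.18, 0.733 and 1.11 in the constitutive knockouts, and 0.69, 1.25 and 0.785 CPM in the inducible controls and 7.51, 8.75, 8.16 and 18.8 in the inducible knockouts, with an interaction of -3.50 ± 0.73 (adjusted p = 0.00254). Epha2, an ephrin receptor, rose in the inducible model alone (0.07, 2.87 and -2.81). Among inducible-specific falls, Adamts20 measured 4.77, 11.2, 4.12 and 8.36 CPM in the constitutive controls and 11.9, 12.2 and 11.2 in the constitutive knockouts, and 1.69, 5.48 and 7.49 CPM in the inducible controls and 0.682, 0.508, 0.435 and 0.958 in the inducible knockouts. The inducible fall was -2.91 ± 0.48 (adjusted p = 0.00121) and the interaction 3.63 ± 0.64 (adjusted p = 0.000986). Over the class, the median inducible changes were 0.67 for rises and -1.47 for falls. Without libraries 56 and 57 the class held 351 rises and 95 falls.

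Immune response lists are set against the shares of all genes tested. In the constitutive model 16.7% rose and 19.3% fell (35.9% called), and in the inducible model 8.07% rose and 6.07% fell (14.1% called). The interaction was positive for 14% and negative for 16.9% (30.9% called). Of 33 type I interferon genes, 13 fell and 3 rose in the constitutive model, 2 rose in the inducible model, and 9 had a negative and 1 a positive interaction. With 1 library left out the constitutive falls ran from 8 (without library 73) to 14 and the negative interactions from 6 to 15 (without library 56). Cmpk2 had 1.14, -0.42 and 1.56 and the tethering factor gene Bst2 -0.73, 0.63 and -1.35. Of 25 inflammatory genes, 14 fell and 2 rose in the constitutive model, 3 fell in the inducible one, and 11 had a negative and 1 a positive interaction. The inflammatory list held 6 or 7 negative interactions without any 1 of libraries 69, 71, 73, 54 and 55, and 1 inducible fall without any 1 of 55, 56, 48 and 49 but 7 without 57. Il1b, the gene of interleukin 1 beta, was among the rises, at 18.7, 11.8, 26.7 and 18.8 CPM in the constitutive controls and 71.7, 54.1 and 87.7 in the constitutive knockouts. Its inducible libraries held 20.6, 34.4 and 13.5 CPM in controls and 20.5, 10.0, 16.5 and 15.4 in knockouts, and the interaction was 2.46 ± 0.44 (adjusted p = 0.00109). Cd86 and Tlr2 fell in the constitutive model (-2.70 and -2.02), with interactions of -2.27 and -1.64. Of 19 antigen presentation genes, 6 fell and 5 rose in the constitutive model and 1 fell in the inducible one. A negative interaction was called for 6 of them, including the class I light chain gene B2m (-1.88, -0.14 and -1.75). With both signs counted, the share of called interactions was near that of all genes for the interferon and antigen presentation lists. Immediate early genes, which sorting itself can raise, were called in few cases, with 3 of 22 down and 2 up in the constitutive and 3 down in the inducible model; without library 57 alone, 7 fell in the constitutive and 11 in the inducible model, and without any 1 of libraries 54, 55, 56 and 49 at most 1 fell in the inducible model. Leaving out 1 library ended the call for the constitutive change of Bst2 without either of libraries 71 and 73 (adjusted p up to 0.0773) and the inducible change of Bst2 without any 1 of libraries 54, 55, 53 and 57 (adjusted p up to 0.141).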

How the data were processed

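RNA of sorted microglia was amplified as complementary DNA and sequenced, per the labels' protocols. The authors deposited a table of raw read counts per gene, and the submitters' processing notes name CASAVA 1.8.2, STAR 2.5.2b, featureCounts 1.5.1, limma 3.28.21 and the build GRCm38, with no role given for each. The annotation release was not given in the sources used here. The deposited CPM values (library-size-normalised counts) equal each count over its library's total within 4.90e-06. They and the deposited log2 values entered no test.

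From the counts, genes with enough reads for edgeR's filterByExpr in the 14 P0 libraries were kept (19236 of 48526). The 468 genes without a symbol, 0.0515% of the P0 counts, stayed in. One edgeR 4.0.16 quasi-likelihood fit (R 4.3.3) with TMM-scaled library sizes gave the constitutive effect, the inducible effect and their difference, with p-values adjusted by Benjamini-Hochberg over all genes tested and a threshold of 0.05. The procedure was tested on simulated counts. Printed CPM use the same scaled sizes. No 2 replicates of a group matched within sampling noise (chi-square of 13.9 to 93.5 per gene between pairs). Alternatives were RLE size factors, library totals, other filters, DESeq2 1.42.0, limma 3.58.1 with voom, all 50 libraries, sex as a covariate (read from sex-linked genes; 1 female among the constitutive controls, 1 among the constitutive knockouts, 2 among the inducible knockouts and none among the inducible controls), each model alone and each library left out. Leaving out libraries 56 and 57, or giving them a term, was chosen after seeing the data.

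Hdac1, Hdac2, Cx3cr1 and Esr1 were always named. In each class and direction up to 5 genes of at least 5 CPM in the highest group were named, without overlap where an effect was called, by the smaller of both changes (alike, opposed) or by the interaction. From each of 28 gene lists up to 4 members with the smallest interaction p were named, and genes outside this rule are said to be so. The members, lists and the promoter motif were chosen with earlier results of these data known. The values of a few genes are not reported here.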

Additional observations from a re-analysis of the deposited data

Results flagged for a closer look

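The summed level of each gene list, and the levels of Hdac1, Hdac2, Cx3cr1 and Esr1, were checked for a library far from the rest of its group (Dixon's test at 95%). This was done in the constitutive controls and the inducible knockouts, the groups of 4 animals. Of 64 groups of values tested, 10 stood out, all of them list sums, where chance gives about 1 in 20. The lists share libraries, so these tests are not independent. In the constitutive controls all 4 came from library 70, which was lowest for type I interferon genes (638 CPM) and highest for cholesterol synthesis genes (1084 CPM), neuron markers (2565 CPM) and vascular markers (242 CPM). In the inducible knockouts 5 came from library 57, highest for macrophage and microglia transcription factors (5213 CPM), anti-apoptotic genes (1153 CPM) and immediate early genes (7423 CPM), and lowest for cholesterol synthesis genes (699.7 CPM) and neuron markers (392 CPM). Library 53 was highest for ribosomal protein genes (6941 CPM).

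The effects of the 2 models differed by the test of the interaction for 5946 genes. Of the genes that check the design, Cx3cr1 (-1.94), Esr1 (-2.68) and Hdac2 (0.93 on the log2 scale) were among them.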

How the results depend on the processing

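No paired analysis was possible because the animal numbers name different animals, and the P0 groups share none of them. No class or count below moved by over 1.5 times with a 1 CPM filter, with limma voom, or with a term for libraries 56 and 57. With RLE size factors the opposed genes that fell in the constitutive model numbered 106. With library totals the counts were 5792 constitutive rises, 1992 constitutive falls, 1488 negative interactions, 721 alike rises, 65 opposed genes that fell in the constitutive model, 2834 constitutive-specific rises and 805 falls, and 332 inducible-specific rises. The constitutive values of Diablo (0.29) and Mcm6 (0.016) changed sign there. With no filter on low counts, 146 opposed genes rose and 117 fell in the constitutive model. DESeq2 gave 1963 inducible falls, 449 alike rises, 553 opposed genes that rose in the constitutive model and 353 inducible-specific falls. With all 50 libraries there were 1786 negative interactions, 511 alike falls, 77 and 66 opposed genes (up and down in the constitutive model), 1011 constitutive-specific falls and 319 inducible-specific rises. Sex as a covariate gave 968 inducible rises, 649 inducible falls, 66 and 125 opposed genes, and 385 inducible-specific rises and 102 falls. Each model alone gave 626 inducible falls. Without libraries 56 and 57 there were 872 inducible rises, 619 inducible falls, 180 graded genes, 44 and 95 opposed genes, and 351 inducible-specific rises and 95 falls. At a threshold of 0.01 there were 121 alike rises and 182 falls, 71 graded genes, 18 and 30 opposed genes, 808 constitutive-specific rises and 1164 falls, and 232 inducible-specific rises and 59 falls. With changes of at least 1 (log2) there were 118 alike rises and 139 falls, 88 graded genes, 107 and 8 opposed genes, 870 constitutive-specific falls and 95 inducible-specific rises.

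With 1 library left out, constitutive rises ran from 2558 (library 73) to 4166 (library 70) and falls from 2281 (73) to 3872 (53). Inducible rises ran from 863 (55) to 1677 (70) and falls from 626 (55) to 1248 (54). Positive interactions ran from 1959 (55) to 3357 (70) and negative ones from 1816 (73) to 3119 (48). Alike rises ran from 195 (54) to 374 (70), alike falls from 239 (55) to 360 (57), and graded genes from 155 (55) to 274 (70). Opposed genes up in the constitutive model ran from 67 (56) to 442 (54), and those down from 66 (73) to 182 (48). Constitutive-specific rises ran from 1266 (73) to 2362 (70) and falls from 995 (73) to 1969 (53), inducible-specific rises from 354 (55) to 597 (48) and falls from 96 (56) to 309 (54). The opposed class kept 28.7% of its genes without libraries 56 and 57, 20.6% in the fit of all 50 libraries, 38.4% with sex as a covariate and 49.3% with library totals. In the same order the constitutive-specific class kept 77.5%, 49%, 89.5% and 70.2%, the inducible-specific class 44.5%, 36.4%, 52.9% and 30.7%, and the alike class 61.4%, 70.8%, 70.6% and 77.95%. Beyond those given, the cause of each change was not tested. Groups of 3 and 4 animals limit all counts, and their part was not set against that of read depth.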

Other observations

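Of 22 cholesterol synthesis genes, 12 rose and 2 fell in the constitutive model and 1 rose and 1 fell in the inducible model, with 5 positive and 1 negative interactions (30.9% of all genes tested had a called interaction). Of all genes tested, 16.7% rose and 19.3% fell in the constitutive model, and 8.07% rose and 6.07% fell in the inducible model. The regulator Srebf2 measured 54.05, 74.9, 56.1 and 54.9 CPM in the constitutive controls and 114, 131 and 118 in the constitutive knockouts, and 62.7, 51.3 and 46.4 CPM in the inducible controls and 62.6, 50.5, 46.7 and 48.8 in the inducible knockouts. Its constitutive groups did not overlap (1.01 ± 0.15, adjusted p = 8.15e-05), its inducible change was -0.04 ± 0.15 (adjusted p = 0.898), and the interaction was 1.05 ± 0.21 (adjusted p = 0.00218). Hmgcs1, which makes the precursor HMG-CoA, had 0.88, 0.10 and 0.78, while Ebp, a sterol isomerase gene, fell in the constitutive model (-1.16, 0.14 and -1.30). The positive interactions on the list ran from 3 to 11 with 1 library left out, the lowest without library 55, 8 without 68 and the highest without constitutive control 70, whose neuron marker sum was also the highest of its group.

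Of 50 ribosomal protein genes, 13 fell in the constitutive model, 2 rose in the inducible model and 19 had a negative interaction. Over all genes tested, 19.3% fell in the constitutive model, 8.07% rose in the inducible model and 16.9% had a negative interaction. With library totals the negative interactions numbered 2 and the constitutive falls 3. With 1 library left out the constitutive falls ran from 3 to 20, with 8 or fewer without any 1 of libraries 69, 71, 74, 68, 73 and 76 and the highest without 53. The negative interactions ran from 5 to 20, with 12 or fewer without any 1 of libraries 69, 71, 74, 73, 76, 54 and 55. The inducible rises ran up to 4, and lost their calls without any 1 of libraries 54, 55, 56 and 53. Rpl3, a large subunit protein gene, had an inducible effect of 0.07 and an interaction of -1.07.

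Rest encodes a repressor of neuronal genes that works with HDAC1 and HDAC2, and was picked out after its values were seen. It measured 104, 82.6, 78.7 and 84.5 CPM in the constitutive controls and 48.2, 43.4 and 70.4 in the constitutive knockouts, and 98.4, 107 and 72.7 CPM in the inducible controls and 142, 152, 147 and 163 in the inducible knockouts. The opposed changes were -0.70 ± 0.17 (adjusted p = 0.00492) and 0.70 ± 0.17 (adjusted p = 0.0131), with an interaction of -1.40 ± 0.24 (adjusted p = 0.000892). The constitutive fall lost its call with library totals or without library 68 or 73, and the inducible rise without library 56 alone or together with 57.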
